A study of Homo sapiens with 16 samples.

Results

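The genes of cholesterol and fatty acid synthesis were followed across 8 groups of triple-negative breast cancer cells that differed in Wnt reporter activity. The 31 members were listed by symbol in 4 roles: 7 enzymes of the mevalonate stage, 11 of the squalene and sterol stage, 6 genes of the control by sterols and 7 of fatty acid synthesis. Symbols were mapped to the Ensembl identifiers of the deposited tables, which hold 57820 genes, and 30 of the 31 members were found. ACACA, which makes malonyl-CoA for fatty acid synthesis, has no value here. Its identifier in the annotation used for mapping is absent from the deposited tables. That annotation is a later Gencode release than the one the study's methods name for the counts. An older identifier of ACACA was not looked for. All 30 members found passed the filter on low counts in both serum conditions.

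MDA-MB-231 and MDA-MB-436 are established mesenchymal breast cancer cell lines. All groups carried the 7TGP vector, in which Tcf/Lef binding sites drive eGFP, together with puromycin resistance. Repeated sorting on eGFP gave a 7TGP-POS and a 7TGP-NEG subline of each line, so each group stands for 1 sorted population and the eGFP signal is the reporter's, not a direct measure of Wnt activity at other genes. Cells were harvested on day 3 in low serum (0.5% FBS) or on day 6 in standard serum (10% FBS), with 2 biological replicates in each of the 8 groups and 16 libraries in all. The study's methods name ribosomal RNA depletion for the low-serum libraries and poly(A) selection for the standard-serum libraries, while the sample labels name 1 poly(A) kit for all libraries. Serum, days in culture and library preparation cannot be told apart, and no test was made across the serum conditions. The sources also disagree on the medium, which the methods give as different for each line and the labels as the same, so line and medium cannot be told apart.

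Cholesterol is built from acetyl-CoA. The mevalonate stage makes isoprenoid units and farnesyl diphosphate, and the squalene and sterol stage joins farnesyl units into squalene, closes the rings and trims lanosterol to cholesterol. The SREBP transcription factors, products of SREBF1 and SREBF2, are held in the endoplasmic reticulum with SCAP by the sterol-responsive INSIG proteins. When sterols are low they are released and raise the genes of both stages, with SREBF1 acting more on fatty acid synthesis. Cells fed with lipoprotein-rich serum usually run these genes at a lower level.

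The 16 libraries held 27918418 to 46044073 counts each. The share on the protein-coding genes tested was 89.0% to 94.0% in low serum and 96.8% to 97.8% in standard serum. The mesenchymal marker VIM lay between 368.6 and 3882 on the deposited TPM scale, a per-length measure of transcript abundance, in every library and CDH1, the defining epithelial cadherin, between 0.02 and 0.15 TPM. CDH2, another mesenchymal cadherin, was at 0.15 to 0.66 TPM in MDA-MB-231 and at 100.1 to 187 TPM in MDA-MB-436. Of the other epithelial markers, GRHL2 did not pass 0.08 TPM and ESRP1 1.2 TPM, but EPCAM lay at 6.96 to 12.11 TPM in MDA-MB-231 and at 1.67 to 4.33 TPM in MDA-MB-436. The T cell marker CD3E and the endothelial marker CDH5 did not pass 0.07 TPM in any library. The leukocyte genes PTPRC (0.53 to 4.04 TPM in MDA-MB-231, at most 0.12 in MDA-MB-436) and CD14 (3.48 to 14.82 TPM) were detected, and their part in the results was not tested. Within 7TGP-POS MDA-MB-436 in standard serum the replicates differed along the GC content of the transcripts (r = -0.68 over 12621 genes and -0.58 over the 30 members, a description of 1 pair of libraries). For the replicates of 7TGP-POS MDA-MB-231 in low serum, r was 0.36 over 12957 genes and 0.54 over the 30 members. For MVD, CYP51A1, SREBF1 and FASN, the POS against NEG values of MDA-MB-436 in standard serum are also given without each POS library.

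Promoter sequences of RefSeq (250 bases before to 50 after a start, from a GRCh38.p14 table) were at hand for 27 of the 31 members, ACACA among them. They describe the letters around the starts of the genes, and a link to the changes in level was not tested. The CCAAT box, the letters CCAAT on either strand, which NF-Y binds next to SREBP sites, was in a window of 20 of the 27 genes (74.1%) and of 39.7% of all 27305 genes with windows. It was in 5 of 6 mevalonate genes, 8 of 9 sterol genes, 3 of 6 control genes and 4 of 6 fatty acid genes. The Sp1 box GGGCGG was in 26 of the 27 (96.3%, against 48.3% of all genes), the E-box CACGTG in 4 (14.8% against 8.77%: INSIG1, LSS, SC5D and SCAP), and the sterol regulatory element TCACNCCAC in 1, SREBF2 (3.70% against 1.39%). The 27305 genes were not limited to those tested for expression. Both strands were searched, matches of different motifs may share bases, and a match describes the letters and is not a binding site. Only these letters within the windows were searched, so a missing match does not show that a site is absent.

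The stretches below belong to the members with the lowest mean log2 fold change over the 4 POS against NEG comparisons (HMGCS1, -1.23; FADS2, -0.82; MSMO1, -0.59; MVK, -0.56; IDI1, -0.53) among those with a window. Each is the longest run of the 250 bases before the start that lies on no annotated exon, 5′ to 3′ on the gene's strand, with coordinates on GRCh37 from an exact match. Capitals mark CCAAT, or ATTGG where the box is on the other strand. The HMGCS1 stretch (150 bases, chr5:43313615-43313764, minus strand, next to the 5′ end of the gene) holds 1 box, MSMO1 (248 bases, chr4:166248571-166248818, plus strand, next to the 5′ end) 4, MVK (212 bases, chr12:110011386-110011597, plus strand, in an intron of other annotated forms of the gene) 5, and IDI1 (250 bases, chr10:1095060-1095309, minus strand, next to the 5′ end) 2.
The FADS2 stretch (102 bases, chr11:61583626-61583727, plus strand, next to the start of an annotated form and inside the annotated span of FADS1) holds no box.
HMGCS1: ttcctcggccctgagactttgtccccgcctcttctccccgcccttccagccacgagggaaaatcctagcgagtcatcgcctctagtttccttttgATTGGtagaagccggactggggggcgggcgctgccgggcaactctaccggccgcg
FADS2: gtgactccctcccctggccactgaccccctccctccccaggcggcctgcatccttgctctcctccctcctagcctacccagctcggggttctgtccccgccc
MSMO1: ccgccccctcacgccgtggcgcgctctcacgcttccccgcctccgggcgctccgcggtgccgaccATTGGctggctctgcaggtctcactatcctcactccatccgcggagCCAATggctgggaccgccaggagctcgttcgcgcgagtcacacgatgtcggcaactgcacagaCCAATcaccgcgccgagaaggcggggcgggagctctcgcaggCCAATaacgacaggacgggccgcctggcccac
MVK: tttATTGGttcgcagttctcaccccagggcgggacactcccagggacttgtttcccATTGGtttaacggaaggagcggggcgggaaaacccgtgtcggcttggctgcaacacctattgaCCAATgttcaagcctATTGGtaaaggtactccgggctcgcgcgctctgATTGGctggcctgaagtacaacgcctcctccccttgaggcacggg
IDI1: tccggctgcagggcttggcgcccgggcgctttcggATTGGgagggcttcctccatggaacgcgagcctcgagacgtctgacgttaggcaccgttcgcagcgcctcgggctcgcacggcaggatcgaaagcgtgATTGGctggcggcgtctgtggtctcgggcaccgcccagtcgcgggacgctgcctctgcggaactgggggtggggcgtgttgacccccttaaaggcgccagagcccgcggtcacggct

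Each 7TGP-POS group was compared with the 7TGP-NEG group of its line within each serum condition, to ask how the pathway differed with reporter activity. Levels are scaled counts (CPM, counts relative to the library total over tested genes after TMM scaling), given for replicate 1 and then replicate 2. A member is called lower or higher where edgeR's quasi-likelihood test gave a Benjamini-Hochberg adjusted p under 0.05 over all genes tested, and is a differentially expressed gene (DEG) where its log2 fold change was also at least 1 in size. Differences are log2 fold changes of POS over NEG ± their standard error, with 2 libraries a group. In bulk RNA a lower level in every cell and fewer cells with the transcript cannot be told apart.

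In low serum, most members were lower in the POS cells of both lines. In MDA-MB-436, 23 of 30 members were called lower and 3 higher, where 25.3% of the 16069 genes tested were called lower and 26.6% higher. The members' median was -0.59, and that of all genes was 0.01. In MDA-MB-231, 17 members were called lower and 7 higher (19.9% and 19.0% of all genes), with a median of -0.18 against -0.01. MDA-MB-436 held 6 DEGs, all lower (4.03% of all genes), and MDA-MB-231 held none (5.90% of all genes were DEGs in either direction).

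In standard serum the counts were smaller. In MDA-MB-436, 17 members were called lower and 2 higher (23.4% and 26.1% of the 15414 genes tested), with a median of -0.24 and 2 DEGs, both lower (6.06% of all genes). In MDA-MB-231, 10 were called lower and 5 higher (16.2% and 16.8%), with a median of -0.06 and no DEG (7.69% of all genes). The 7 members called lower in all 4 comparisons were HMGCS1, MVK, FDFT1, MSMO1, SREBF2, SCD and FADS2 (2.24% of the 15286 genes tested in all 4 met this rule), and no member was called higher in all 4. The calls of MSMO1, SREBF2 and SCD in some of the comparisons were lost under alternatives given with those genes.

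**Figure D1:**
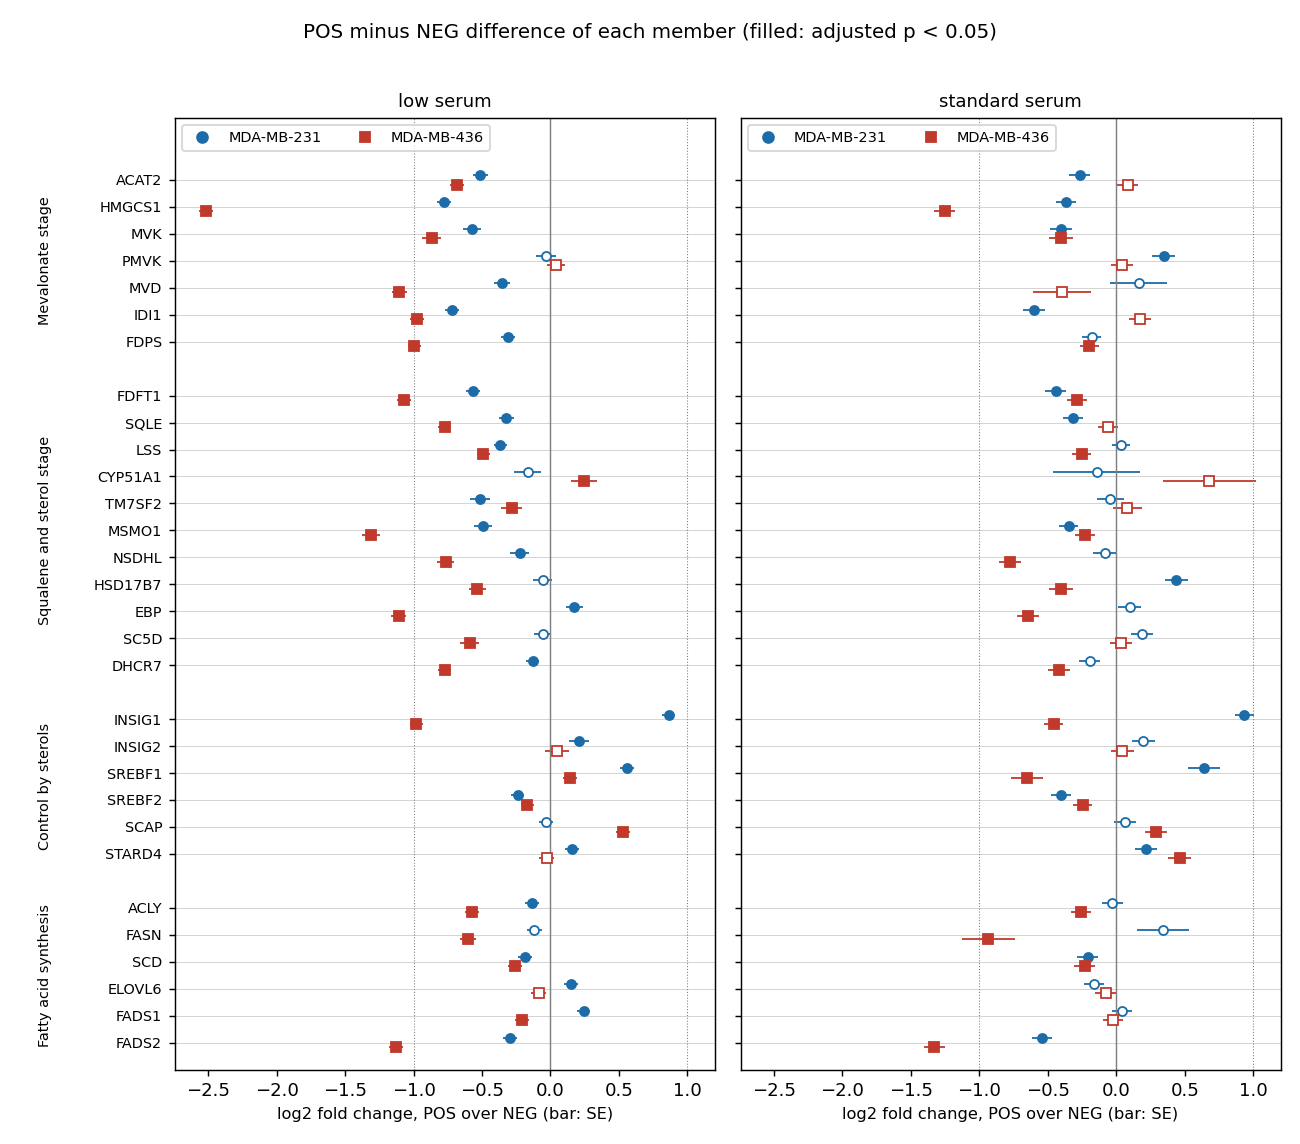
Log2 fold change of POS over NEG for the 30 members by role (rows), in low serum (left) and standard serum (right), with bars of 1 standard error; blue circles are MDA-MB-231, red squares MDA-MB-436, and filled symbols have an adjusted p under 0.05. The red squares of low serum lie left of 0 for 25 members, with HMGCS1 at -2.51, while INSIG1 lies at 0.86 for MDA-MB-231 and -0.98 for MDA-MB-436.

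The mevalonate stage had the largest single difference. HMGCS1, which makes HMG-CoA, was at 1127 and 1119 CPM in MDA-MB-436 NEG cells in low serum and at 197 and 196 CPM in POS cells. It fell 5.71-fold (-2.51 ± 0.05, adjusted p = 6.45e-34). In MDA-MB-231 it went from 299.8 and 303 CPM to 176 and 175 CPM (-0.78 ± 0.05, adjusted p = 9.39e-17). The POS libraries of both lines lay between 175 and 197 CPM, and the NEG libraries between 299.8 and 1127 CPM.

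In standard serum HMGCS1 was at 219 and 213 CPM in MDA-MB-436 NEG cells and at 95.7 and 85.4 CPM in POS cells (-1.25 ± 0.07, adjusted p = 1.77e-10). In MDA-MB-231 it was at 233 and 238 CPM against 182 and 183 CPM (-0.37 ± 0.07, adjusted p = 0.000645). The POS libraries lay below the NEG libraries without overlap in each of the 4 comparisons, as did 32.9% to 36.4% of all genes. Whether the neighbours of HMGCS1 on chromosome 5 differed in the same way in MDA-MB-436 was not tested. Of the exon bases of HMGCS1, 37.7% overlap a gene on the other strand in the annotation used for mapping. Whether the counting used strand is not given in the sources used here.

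MVD, which makes isopentenyl diphosphate, was the other DEG of this stage. It was at 144 and 146 CPM in MDA-MB-436 NEG cells in low serum and at 68.7 and 65.9 CPM in POS cells (-1.11 ± 0.05, adjusted p = 1.47e-20). In MDA-MB-231 it went from 79.6 and 83.6 CPM to 66.1 and 61.5 CPM (-0.35 ± 0.06). In standard serum it passed the test in neither line (0.16 ± 0.21 and -0.40 ± 0.21), with its replicates at 32.4 and 49.1 CPM in MDA-MB-436 POS cells. Without replicate 1 of that group the second value was -0.14, and without replicate 2 it was -0.73 with an adjusted p of 0.00163.

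MVK, the kinase of mevalonate, fell in all 4 comparisons, by 0.57 and 0.87 on the log2 scale in low serum and by 0.40 in both lines in standard serum. In MDA-MB-436 in low serum it went from 37.1 and 39.9 CPM to 20.9 and 21.3 CPM. IDI1, the isomerase of isopentenyl diphosphate, went from 218 and 214 CPM to 112 and 109 CPM in the same cells (-0.97 ± 0.05), and from 180.1 and 179 CPM to 105 and 113 CPM in MDA-MB-231 (-0.72 ± 0.05). In standard serum IDI1 fell in MDA-MB-231 (174 and 166 CPM to 112 and 113 CPM, -0.60 ± 0.08), while in MDA-MB-436 it was at 72.6 and 71.1 CPM against 86.6 and 75.2 CPM (0.17 ± 0.08, adjusted p = 0.081).

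FDPS, the farnesyl diphosphate synthase, was just short of the DEG threshold in MDA-MB-436 in low serum, with 613 and 641 CPM in NEG cells and 322 and 307 CPM in POS cells (-0.995 ± 0.05). ACAT2, the thiolase at the start of the pathway, fell in both lines in low serum (-0.51 ± 0.06 and -0.68 ± 0.05) and in MDA-MB-231 in standard serum (-0.27 ± 0.08). PMVK, the next kinase after MVK, did not follow: it passed the test only in MDA-MB-231 in standard serum, where it was higher (29.7 and 31.1 CPM to 39.6 and 37.7 CPM, 0.35 ± 0.08). FDPS and IDI1 have 8 and 3 named pseudogenes, between which and the genes reads could have been split.

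In the squalene and sterol stage, 10 of 11 enzymes were called lower in MDA-MB-436 in low serum and 7 in MDA-MB-231. MSMO1, a sterol C4-methyl oxidase, went from 262 and 276 CPM to 108 and 108 CPM in MDA-MB-436 (-1.31 ± 0.07, adjusted p = 1.09e-11) and from 262 and 249 CPM to 165 and 199 CPM in MDA-MB-231 (-0.49 ± 0.07). In standard serum its level in MDA-MB-231 was 442 and 443 CPM against 351 and 344 CPM (-0.35 ± 0.07), and in MDA-MB-436 it was 73.02 and 68.9 CPM against 62.6 and 58.7 CPM (-0.23 ± 0.07). The POS libraries lay below the NEG libraries in each of these comparisons, as did 32.9% to 36.4% of all genes. The call in MDA-MB-436 in standard serum was lost without NEG replicate 1 (-0.20).

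FDFT1, which makes squalene, was at 589.9 and 599 CPM in MDA-MB-436 NEG cells in low serum and at 289 and 277 CPM in POS cells (-1.07 ± 0.05, adjusted p = 1.30e-21). It fell in the other 3 comparisons too, by 0.56 in MDA-MB-231 in low serum and by 0.44 and 0.29 in MDA-MB-231 and MDA-MB-436 in standard serum. SQLE, the squalene epoxidase that follows it, fell by 0.77 in MDA-MB-436 in low serum (719 and 720.2 CPM to 425 and 417 CPM). In MDA-MB-231 it fell by 0.32 in low serum and by 0.31 in standard serum, and in MDA-MB-436 in standard serum it did not pass the test (-0.06 ± 0.07).

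EBP, the sterol isomerase, differed in direction between the lines. In MDA-MB-436 in low serum it fell from 187 and 209 CPM to 93.2 and 90.4 CPM (-1.11 ± 0.06, adjusted p = 1.28e-19), and in standard serum from 107 and 97.4 CPM to 63.6 and 67.2 CPM (-0.65 ± 0.08). In MDA-MB-231 in low serum it was higher, at 47.2 and 44.96 CPM against 49.7 and 54.5 CPM (0.18 ± 0.06, adjusted p = 0.026), a difference that is -0.03 on log2(TPM + 0.5) and then does not pass. In standard serum that line gave 0.10 ± 0.08. In the annotation used for mapping, 36.4% of the exon bases of EBP overlap another gene on the same strand, so reads there may belong to either.

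NSDHL, a sterol dehydrogenase, fell in MDA-MB-436 by 0.77 in low serum (121 and 136 CPM to 77.1 and 73.7 CPM) and by 0.78 in standard serum (80.5 and 77.7 CPM to 46.4 and 45.97 CPM). In MDA-MB-231 it fell by 0.23 in low serum and gave -0.08 ± 0.08 in standard serum. HSD17B7, a ketoreductase of the same demethylation steps, fell in MDA-MB-436 in low and standard serum (-0.54 ± 0.06 and -0.40 ± 0.09) but rose in MDA-MB-231 in standard serum (32.9 and 33.5 CPM to 43.00 and 47.1 CPM, 0.44 ± 0.08). HSD17B7 has named pseudogenes that could share its reads.

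DHCR7, the last reductase of the pathway, fell in MDA-MB-436 in both conditions (-0.77 ± 0.05 and -0.42 ± 0.08) and in MDA-MB-231 in low serum (-0.13 ± 0.05), with -0.19 ± 0.08 and no call in standard serum. LSS, which closes the sterol rings, fell in both lines in low serum (-0.37 ± 0.05 and -0.49 ± 0.05). In MDA-MB-436 in standard serum it was called lower (-0.25 ± 0.07), but the value was -0.07 (adjusted p = 0.301) with the GC trend of each library removed and -0.16 (adjusted p = 0.0525) on log2(TPM + 0.5). TM7SF2, a sterol reductase, fell in both lines in low serum (-0.52 ± 0.07 and -0.28 ± 0.07) and gave -0.04 ± 0.10 and 0.08 ± 0.11 in standard serum. SC5D, a sterol desaturase, fell in 1 comparison, MDA-MB-436 in low serum (-0.59 ± 0.07).

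CYP51A1, the lanosterol demethylase, was called once in these comparisons, and higher: 13.9 and 15.6 CPM against 18.9 and 15.98 CPM in MDA-MB-436 in low serum (0.25 ± 0.09, adjusted p = 0.026), which becomes -0.01 on log2(TPM + 0.5). In standard serum MDA-MB-436 held it at 5.396 and 7.44 CPM in NEG and 7.36 and 13.5 CPM in POS cells, so that the groups overlapped (0.68 ± 0.34). Without POS replicate 1 the value was 1.05 and called (adjusted p = 0.000631), and without replicate 2 it was 0.18. It was among the lowest of the members in every group on the per-length TPM scale. In the annotation used for mapping, 68.2% of its exon bases overlap other genes on the same strand, so its level is uncertain.

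**Figure D2:**
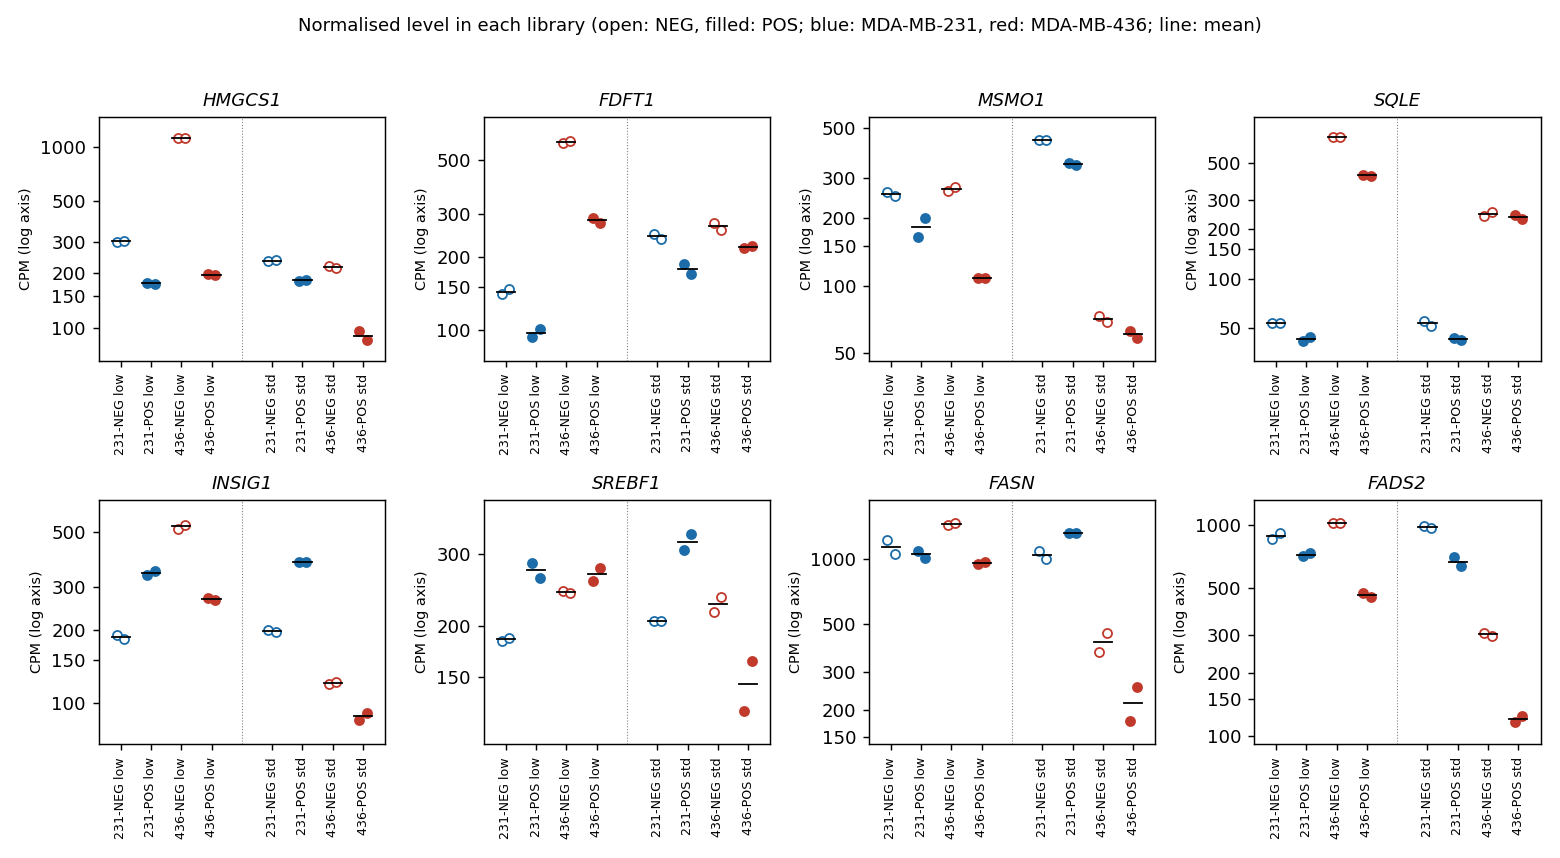
CPM (log axis) of 8 members in each of the 16 libraries; open symbols are NEG, filled symbols POS, blue MDA-MB-231, red MDA-MB-436, and lines are group means of 2 libraries. HMGCS1 stands at 1127 and 1119 CPM in MDA-MB-436 NEG cells in low serum, and at 219 and 213 CPM in standard serum, where libraries were prepared and scaled separately.

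The genes of the control by sterols moved in both directions. INSIG1, which holds SCAP in the endoplasmic reticulum, had the clearest opposite difference between the lines. In MDA-MB-231 it rose from 190.5 and 184 CPM to 334 and 347 CPM in low serum (0.86 ± 0.05, adjusted p = 4.20e-18) and from 199.9 and 196 CPM to 380.0 and 378 CPM in standard serum (0.94 ± 0.07, adjusted p = 7.47e-09). In MDA-MB-436 it fell from 519 and 539 CPM to 270.0 and 266 CPM in low serum (-0.98 ± 0.05, adjusted p = 1.42e-20) and from 121 and 123 CPM to 85.7 and 91.4 CPM in standard serum (-0.46 ± 0.07). The POS and NEG libraries did not overlap in any comparison. POS libraries lay above NEG libraries for 31.1% and 33.0% of all genes in MDA-MB-231, in low and standard serum. They lay below for 36.4% and 34.9% in MDA-MB-436.

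INSIG2, the second INSIG gene, was called once, higher in MDA-MB-231 in low serum (0.21 ± 0.07). That call was lost with DESeq2 (0.22, adjusted p = 0.0739), with the GC trend removed (0.11) and on log2(TPM + 0.5), where the value was 0.01. SREBF1 rose in MDA-MB-231 from 184 and 187 CPM to 284 and 262 CPM in low serum (0.56 ± 0.05) and from 205 and 205 CPM to 306 and 336 CPM in standard serum (0.64 ± 0.12). In MDA-MB-436 in low serum it was at 243 and 241 CPM against 257 and 277 CPM (0.14 ± 0.05, adjusted p = 0.017), a call lost without either NEG replicate or POS replicate 2 of that line or NEG replicate 2 of MDA-MB-231 (0.09 to 0.14), and reversed to -0.11 on log2(TPM + 0.5). In standard serum it fell there from 217 and 236 CPM to 124 and 164 CPM (-0.65 ± 0.12, adjusted p = 0.00104), at -0.47 without POS replicate 1 and -0.87 without POS replicate 2.

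SREBF2, the factor tied most to the sterol genes, fell in all 4 comparisons by 0.17 to 0.40 on the log2 scale. In MDA-MB-436 in standard serum the value went from -0.24 ± 0.07 to -0.06 (adjusted p = 0.444) with the GC trend removed and to -0.15 (adjusted p = 0.0622) on log2(TPM + 0.5). In MDA-MB-231 in standard serum it went from 401 and 399 CPM to 313 and 292 CPM (-0.40 ± 0.07). SCAP, the escort of the SREBP factors, rose in MDA-MB-436 from 77.7 and 75.7 CPM to 111 and 110.2 CPM in low serum (0.53 ± 0.05) and by 0.29 ± 0.08 in standard serum, and gave -0.03 ± 0.05 and 0.07 ± 0.08 in MDA-MB-231. STARD4, a sterol carrier, rose in MDA-MB-436 in standard serum from 28.5 and 27.7 CPM to 41.5 and 35.98 CPM (0.46 ± 0.08) and by 0.22 ± 0.08 in MDA-MB-231. Its rise of 0.16 ± 0.05 in MDA-MB-231 in low serum was -0.04 on log2(TPM + 0.5).

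In fatty acid synthesis, FADS2, the delta-6 desaturase, had the largest differences. In MDA-MB-436 it fell from 1023 and 1021 CPM to 478 and 458 CPM in low serum (-1.13 ± 0.05, adjusted p = 6.03e-22) and from 309 and 298 CPM to 117 and 125 CPM in standard serum (-1.33 ± 0.08, adjusted p = 1.47e-10). In MDA-MB-231 it fell from 858 and 917 CPM to 711 and 734 CPM (-0.30 ± 0.05) and from 984 and 966 CPM to 704 and 636 CPM (-0.54 ± 0.08). FADS1, the neighbouring delta-5 desaturase on chromosome 11, was called in low serum only, higher in MDA-MB-231 (387 and 387 CPM to 446 and 468 CPM, 0.24 ± 0.05) and lower in MDA-MB-436 (1178 and 1159 CPM to 1027 and 997 CPM, -0.21 ± 0.05). On log2(TPM + 0.5) the first value was 0.04 (adjusted p = 0.810).

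FASN, the fatty acid synthase, fell in MDA-MB-436 from 1438 and 1467 CPM to 947 and 969 CPM in low serum (-0.60 ± 0.06). In standard serum it fell from 369 and 456 CPM to 176 and 255 CPM (-0.93 ± 0.19, adjusted p = 0.00979), with values of -0.70 and -1.23 when POS replicate 1 or 2 was left out. In MDA-MB-231 it did not pass the test in either condition (-0.12 ± 0.06 and 0.34 ± 0.19). ACLY, which supplies acetyl-CoA from citrate, fell in MDA-MB-436 by 0.57 in low serum (505 and 518 CPM to 355 and 332 CPM) and by 0.26 in standard serum.

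SCD, the delta-9 desaturase, fell in all 4 comparisons by 0.19 to 0.26 on the log2 scale, and was the member with the highest TPM in every group. The smallest mean was 359.6 ± 19.2 TPM (SD, n = 2) in MDA-MB-231 POS cells in low serum and the largest 1207 ± 76.8 TPM (SD, n = 2) in MDA-MB-231 NEG cells in standard serum. Its calls in MDA-MB-231 and, in standard serum, in MDA-MB-436 were lost when single libraries were left out, with values of -0.13 to -0.26. ELOVL6, an elongase, was called once, higher in MDA-MB-231 in low serum (107 and 113 CPM to 122 and 123 CPM, 0.15 ± 0.05), which was -0.05 on log2(TPM + 0.5).

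The cause of the sign changes between scales was not tested. In low serum 1 gene took 5.77% to 20.6% of all TPM in a library, and log2(TPM + 0.5) moved the median of all genes to -0.17 in MDA-MB-231 and -0.21 in MDA-MB-436, from -0.01 and 0.01. On that scale the members' medians were -0.37 and -0.83. In standard serum the largest share of 1 gene was 1.34% to 2.23%. There log2(TPM + 0.5) moved the median of all genes to 0.02 in MDA-MB-231 and 0.08 in MDA-MB-436, from 0 and 0.005. In MDA-MB-436, 11 members were called lower on that scale, from 17, and 4 higher, from 2.

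Further calls ended under single alternatives. With the GC trend removed, DHCR7, STARD4, ACLY and ELOVL6 lost their calls in MDA-MB-231 in low serum, STARD4 also in standard serum, and FDPS and ACLY in MDA-MB-436 in standard serum. With DESeq2, EBP, DHCR7 and ACLY lost theirs in MDA-MB-231 in low serum, CYP51A1 and SREBF1 in MDA-MB-436 in low serum, and STARD4 in MDA-MB-231 in standard serum. On log2(TPM + 0.5), FDPS, MSMO1, SCD and ACLY lost theirs in MDA-MB-436 and SCD in MDA-MB-231, all in standard serum.

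When each library was left out in turn, 8 members lost their call in MDA-MB-231 in low serum at least once (NSDHL, EBP, DHCR7, INSIG2, STARD4, ACLY, SCD and ELOVL6) and 3 in MDA-MB-436 (CYP51A1, TM7SF2 and SREBF1). In standard serum, 5 lost it in MDA-MB-231 (ACAT2, PMVK, SQLE, STARD4 and SCD) and 5 in MDA-MB-436 (FDPS, MSMO1, SCAP, SREBF2 and SCD). None of the called members of these comparisons changed direction when a library was left out.

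The difference of the reporter comparison between the lines was tested as an interaction in each serum condition (MDA-MB-231 minus MDA-MB-436). In low serum 21 of 30 members were called higher, meaning less lowered or more raised in MDA-MB-231, and 2 lower, where 21.1% and 24.6% of all genes were called so. The median was 0.44. In standard serum 10 were called higher and 2 lower (18.8% and 22.4% of all genes), with a median of 0.11; counting both directions, the members' share called there was no larger than that of all genes.

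INSIG1 had the largest interaction in both conditions, 1.84 ± 0.07 in low serum (adjusted p = 2.85e-24) and 1.39 ± 0.10 in standard serum (adjusted p = 3.31e-09). HMGCS1 followed in low serum (1.74 ± 0.07) and EBP after it (1.29 ± 0.09). In standard serum SREBF1 gave 1.29 ± 0.17 (adjusted p = 0.000133) and FASN 1.28 ± 0.27 (adjusted p = 0.0131). The call of FASN was lost without NEG replicate 2 or either POS replicate of MDA-MB-231 (adjusted p = 0.0549, 0.0522 and 0.0545), while its value stayed between 1.21 and 1.28.

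The members called lower were SCAP (-0.56 ± 0.07) and CYP51A1 (-0.41 ± 0.14) in low serum, and IDI1 (-0.77 ± 0.11) and ACAT2 (-0.35 ± 0.11) in standard serum. IDI1 was higher in low serum (0.25 ± 0.07), a call lost with limma on log2(TPM + 0.5) (0.30, adjusted p = 0.112). The call of CYP51A1 was lost with DESeq2 (-0.36, adjusted p = 0.123). The interaction did not pass in standard serum for FDPS, FDFT1, MSMO1 and SCD, with 95% intervals of -0.17 to 0.21, -0.36 to 0.05, -0.32 to 0.08 and -0.19 to 0.24. Those intervals leave room for differences of these sizes.

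**Figure D3:**
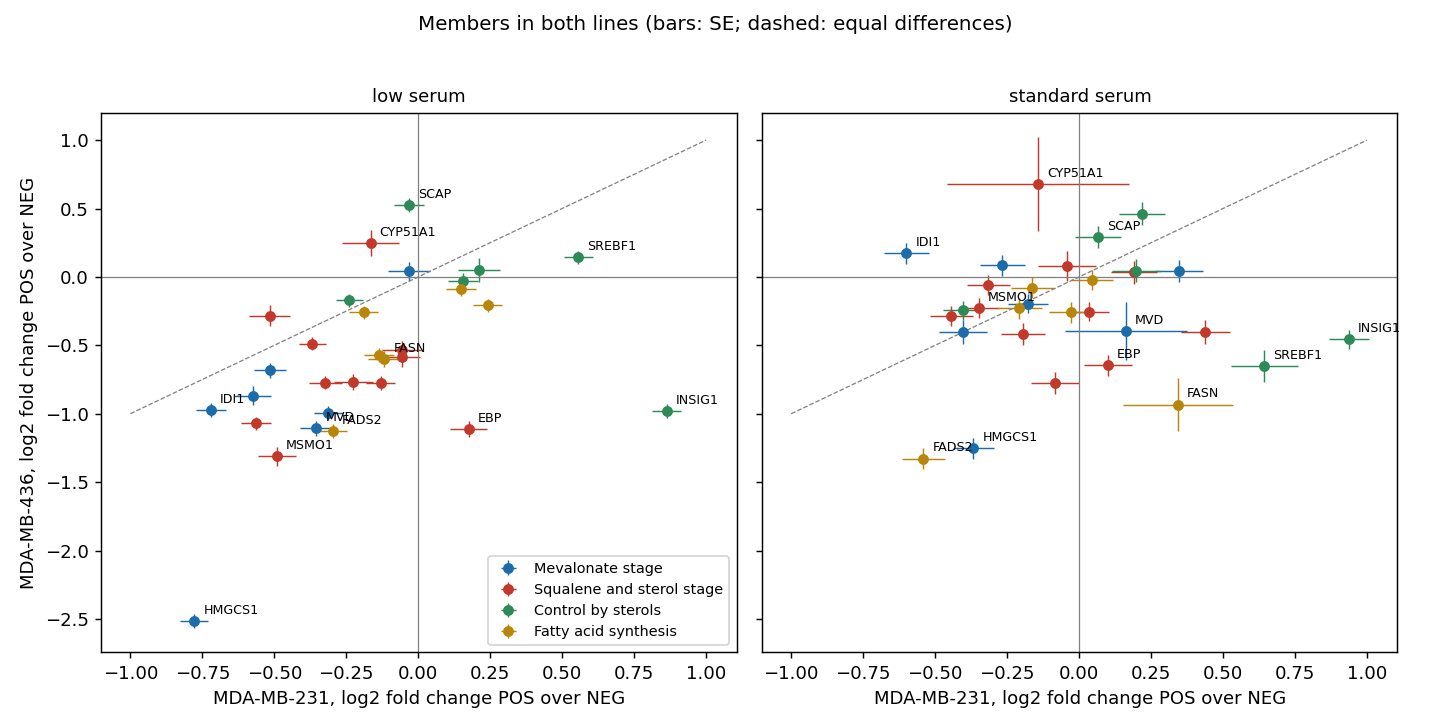
Log2 fold change of POS over NEG in MDA-MB-231 (x) and MDA-MB-436 (y) for the 30 members in low (left) and standard serum (right), coloured by role with bars of 1 standard error; the dashed line marks equal differences. In low serum 20 members lie at negative values on both axes, against 13 in standard serum, and INSIG1 lies to the lower right in both.

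In low serum 17 members were called lower in both lines and 3 in opposite directions (INSIG1, EBP and FADS1), against 5.79% and 11.6% of all genes. In standard serum 7 were called lower in both lines and 3 in opposite directions (INSIG1, SREBF1 and HSD17B7), against 4.54% and 9.15% of all genes. The opposite calls of EBP and FADS1 do not hold on log2(TPM + 0.5). As a description over the 30 members, Pearson's r between the lines was 0.48 in low serum (0.04 over all genes) and 0.02 in the standard condition (0.04 over all genes). Between the serum conditions it was 0.81 in MDA-MB-231 (0.50 over all genes) and 0.64 in MDA-MB-436 (0.74 over all genes). Members share libraries within each value, so these are no tests.

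The NEG sublines, which are sorted populations and not the unsorted lines, were then compared with each other. These comparisons share their NEG libraries with those above. In low serum 20 of 30 members were called lower in MDA-MB-231 and 8 higher, with a median of -0.36, where 39.6% of all genes were called in each direction. In standard serum 4 were called lower and 20 higher, with a median of 0.52 (41.4% and 37.3% of all genes). There were 8 lower and 1 higher DEGs in low serum, and 2 lower and 13 higher in standard serum (21.4%, 20.5%, 25.4% and 21.3% of all genes in that order).

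SQLE had the widest gap in low serum, with 53.5 and 54.2 CPM in MDA-MB-231 against 719 and 720.2 CPM in MDA-MB-436 (-3.74 ± 0.05). In standard serum, where MSMO1 had a wider gap, it was at 55.2 and 51.8 CPM against 240.1 and 252 CPM (-2.20 ± 0.08). EBP was also lower in MDA-MB-231 in both (-2.10 ± 0.06 and -1.50 ± 0.08). NSDHL (-1.63 ± 0.06) and PMVK (-0.49 ± 0.07) of low serum kept their sign in standard serum, at -0.58 ± 0.08 and -0.80 ± 0.08. These 4 were the members called lower in MDA-MB-231 in both conditions.

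The other DEGs lower in MDA-MB-231 in low serum were FDFT1 (140.2 and 147 CPM against 589.9 and 599 CPM, -2.05 ± 0.05), HMGCS1 (-1.90 ± 0.05), FADS1 (387 and 387 CPM against 1178 and 1159 CPM, -1.59 ± 0.05), INSIG1 (-1.50 ± 0.05) and FDPS (286 and 288 CPM against 613 and 641 CPM, -1.13 ± 0.05). In standard serum the values of HMGCS1, FDFT1 and FADS1 did not pass the test (0.13 ± 0.07, -0.14 ± 0.07 and -0.15 ± 0.07). INSIG2 was the DEG higher in MDA-MB-231, at 37.2 and 35.2 CPM against 15.04 and 16.8 CPM (1.19 ± 0.08).

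In standard serum MSMO1 was at 442 and 443 CPM in MDA-MB-231 and at 73.02 and 68.9 CPM in MDA-MB-436 (2.64 ± 0.08), after -0.07 ± 0.07 in low serum. STARD4 was at 106 and 108 CPM against 28.5 and 27.7 CPM (1.93 ± 0.09), ACLY at 818 and 763 CPM against 244 and 243 CPM (1.70 ± 0.08) and FADS2 at 984 and 966 CPM against 309 and 298 CPM (1.68 ± 0.08). FASN was at 1086 and 995 CPM against 369 and 456 CPM (1.34 ± 0.20), SCD at 2008 and 1868 CPM against 791 and 839.6 CPM (1.25 ± 0.08) and ELOVL6 at 116 and 117 CPM against 44.4 and 43.6 CPM (1.40 ± 0.08). Of the 6 fatty acid genes, 5 were thus DEGs higher in MDA-MB-231.

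IDI1 was at 174 and 166 CPM against 72.6 and 71.1 CPM (1.25 ± 0.08), DHCR7 at 266 and 258 CPM against 114 and 110.3 CPM (1.22 ± 0.08) and MVK at 57.1 and 55.8 CPM against 23.5 and 23.1 CPM (1.28 ± 0.09). TM7SF2 (31.2 and 32.8 CPM against 11.9 and 12.8 CPM, 1.37 ± 0.11), SC5D (53.2 and 51.9 CPM against 26.6 and 25.5 CPM, 1.01 ± 0.08) and CYP51A1 (19.9 and 17.4 CPM against 5.396 and 7.44 CPM, 1.53 ± 0.34) were the other DEGs. The libraries of the lines did not overlap for these, as for 43.2% of all genes in this direction.

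**Figure D4:**
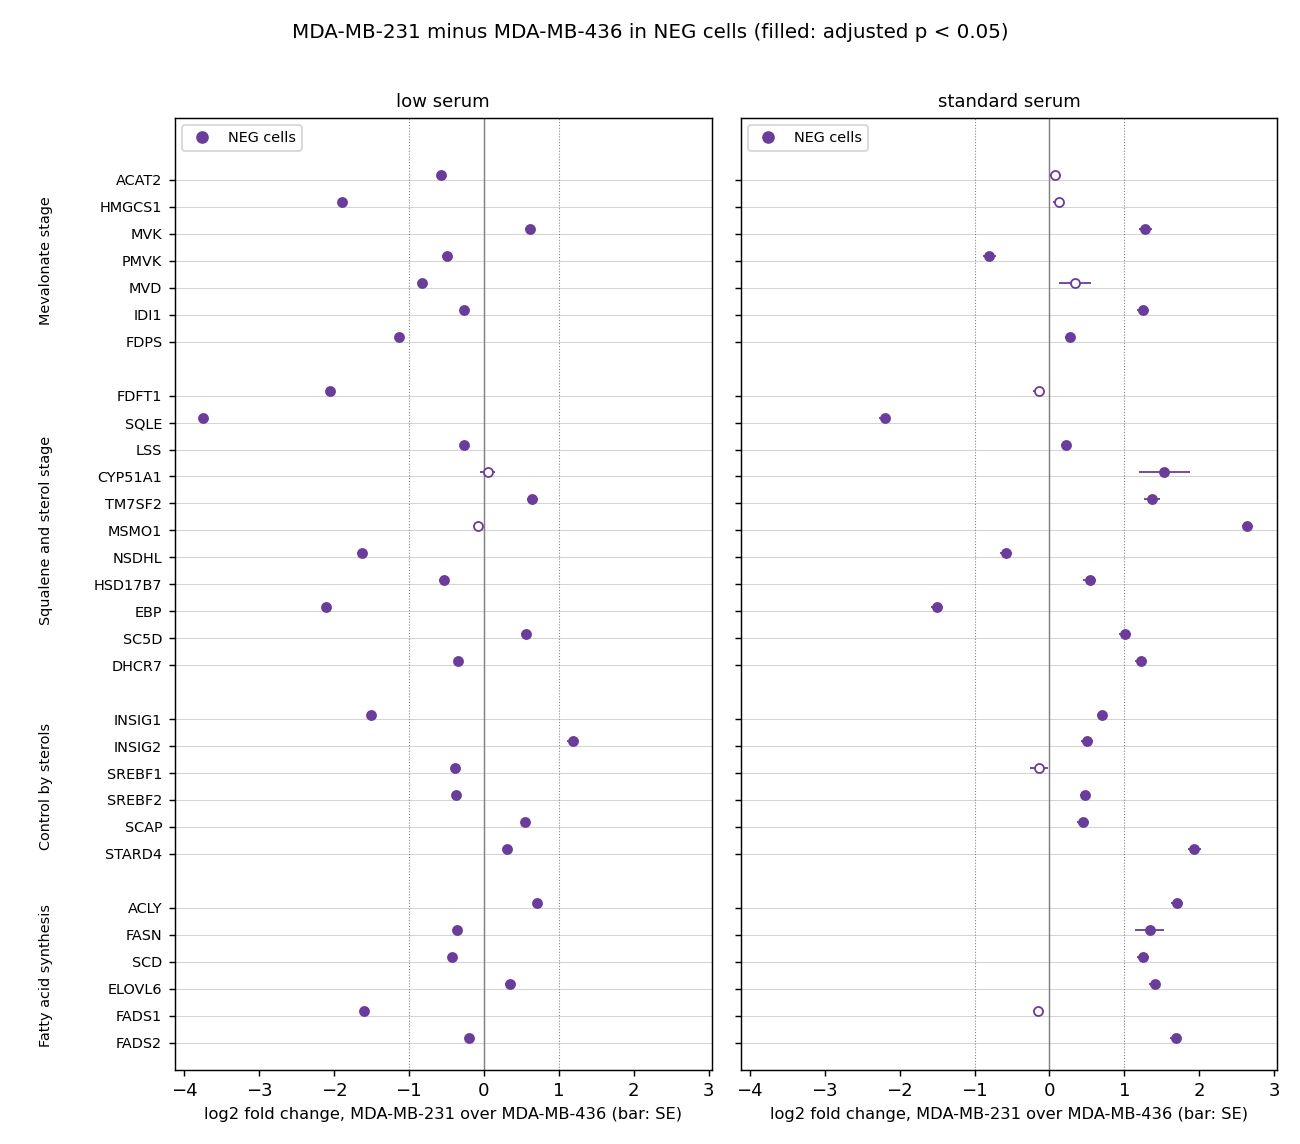
Log2 fold change of MDA-MB-231 over MDA-MB-436 in NEG cells for the 30 members by role, in low (left) and standard serum (right), with bars of 1 standard error and filled symbols at an adjusted p under 0.05. SQLE lies furthest left in both panels (-3.74 and -2.20), and MSMO1 moves from -0.07 to 2.64.

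A set of 10 members was called lower in MDA-MB-231 in low serum and higher in standard serum: IDI1, FDPS, LSS, HSD17B7, DHCR7, INSIG1, SREBF2, FASN, SCD and FADS2. The same held for 1.70% of the 15286 genes tested in both conditions, and 1.73% went the other way, none of them members. The change between serum conditions was not tested. On log2(TPM + 0.5), which moved the median of all genes to -0.33 in low serum, STARD4 and ELOVL6 turned from higher to -0.09 and -0.06 there, and CYP51A1, which was not called, to -0.34.

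A further 42 genes of the pathways covered cleavage and transport of SREBP, other sterol enzymes, sterol traffic and other fatty acid genes. In low serum 14 were called lower and 12 higher in MDA-MB-231 (19.9% and 19.0% of all genes). In MDA-MB-436 these were 18 and 11 (25.3% and 26.6%), and the medians of the lines were 0.02 and -0.04. In standard serum 12 and 13 were called in MDA-MB-231 (16.2% and 16.8% of all genes), and 17 and 11 in MDA-MB-436 (23.4% and 26.1%). The medians were 0.06 and -0.14. ACSS2, which makes acetyl-CoA from acetate, was a DEG in MDA-MB-436 in low serum (198 and 196 CPM to 100.3 and 93.6 CPM, -1.02 ± 0.05). TMEM97, a sterol-regulated membrane protein, fell in MDA-MB-231 in standard serum from 48.1 and 46.2 CPM to 21.6 and 18.3 CPM (-1.24 ± 0.10).

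In the same comparison FABP5, a fatty acid binding protein, fell from 19.5 and 16.6 CPM to 6.22 and 5.01 CPM (-1.69 ± 0.12), and NR1H3, the sterol-sensing receptor LXR alpha, rose from 8.99 and 9.22 CPM to 19.2 and 17.4 CPM (1.003 ± 0.11). FAXDC2 rose in MDA-MB-231 in low serum (2.81 and 3.07 CPM to 7.23 and 5.45 CPM, 1.11 ± 0.18). It was also a DEG in MDA-MB-231 in standard serum (2.05 ± 0.55) and in MDA-MB-436 in low serum (-1.16 ± 0.50), at under 1 CPM in every library of both.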

How the data were processed

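RNA was sequenced from 16 libraries. The authors aligned the reads with STAR (2.6.1a in the submitters' processing notes) to hg19 and deposited whole-number counts per Gencode gene and TPM values per gene, in a file for each serum condition; how the TPM were calculated is not given in the sources used here. Groups were taken from the sample labels. Identifiers, gene types, overlaps and pseudogenes came from a later Gencode release than that of the counts. How reads in the overlaps were assigned is not given in the sources used here. The labels name biological replicates; p-values measure the spread between these cultures of single sorted sublines. Tests covered the protein-coding genes whose counts added up to 10 or more across a file; they used edgeR 4.0.16 (R 4.3.3), with TMM scaling and a robust quasi-likelihood fit of the 4 groups of a file, and Benjamini-Hochberg adjustment over all genes tested. Standard errors were derived from each estimate and its F statistic. TPM served to compare levels between genes. The fit was tested on simulated data. The study's own tests used DESeq2 per its methods, and the submitters' processing notes name edgeR.

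Members, gene lists and tests were chosen with earlier results of these data known. All members are named; values per library are given for DEGs and for the members with the largest changes, and other pathway genes are named where they were DEGs. Alternatives were DESeq2 1.42.0, other scalings and filters, limma 3.58.1 on log2(TPM + 0.5) or log2(TPM + 1), a replicate block and leaving out each library; removal of a GC trend and a crossed block were added after seeing the data. Replicate numbers were not taken as pairs. Correlations of same-numbered deviations ran from -0.237 to 0.098 in low serum. In standard serum they ran from -0.056 to 0.451, with 5 of 6 over 0.1. Whether same-numbered libraries shared an effect there was not tested, and counts with a replicate block are given below. Some marker genes and details of the lines' genotypes are not reported here.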

Additional observations from a re-analysis of the deposited data

Results flagged for a closer look

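The change from NEG to POS cells differed between the lines, by the interaction test of edgeR with Benjamini-Hochberg adjustment over all genes (adjusted p under 0.05), for 23 members in low serum and 12 in standard serum. In low serum 21 were higher and 2 lower, against 21.1% and 24.6% of all genes. In standard serum 10 were higher and 2 lower, against 18.8% and 22.4%. Counting both directions, the members' share in standard serum was no larger than that of all genes. All values are the log2 fold change in MDA-MB-231 minus that in MDA-MB-436.

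In low serum the difference in the mevalonate stage was 1.74 for HMGCS1, 0.75 for MVD, 0.68 for FDPS, 0.29 for MVK and 0.25 for IDI1. In the squalene and sterol stage it was 1.29 for EBP, 0.82 for MSMO1, 0.64 for DHCR7, 0.54 for NSDHL, 0.53 for SC5D, 0.51 for FDFT1, 0.48 for HSD17B7, 0.45 for SQLE and -0.41 for CYP51A1. Among the control genes it was 1.84 for INSIG1, 0.41 for SREBF1, 0.18 for STARD4 and -0.56 for SCAP. In fatty acid synthesis it was 0.83 for FADS2, 0.48 for FASN, 0.45 for FADS1, 0.44 for ACLY and 0.23 for ELOVL6. The calls of MVK, CYP51A1, STARD4 and ELOVL6 were each lost when some single library was left out. Those calls and that of IDI1 (0.30, adjusted p = 0.112) were also lost with limma on log2(TPM + 0.5). With DESeq2 the call of CYP51A1 was lost (-0.36, adjusted p = 0.123).

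In standard serum the difference was 0.89 for HMGCS1, 0.31 for PMVK, -0.35 for ACAT2 and -0.77 for IDI1 in the mevalonate stage. It was 0.84 for HSD17B7, 0.75 for EBP, 0.69 for NSDHL and 0.29 for LSS in the sterol stage, 1.39 for INSIG1 and 1.29 for SREBF1 among the control genes, and 1.28 for FASN and 0.79 for FADS2 in fatty acid synthesis. The calls of ACAT2, PMVK, LSS and FASN were each lost when some single library was left out. PMVK also lost its call with DESeq2 (0.32, adjusted p = 0.0772), and LSS with the GC trend removed (edgeR, 0.18, adjusted p = 0.0659).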

How the results depend on the processing

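With 2 libraries a group, small differences rest on few values; depth limits FAXDC2, which lay under 1 CPM in 6 of the 8 groups. Across alternatives other than leaving out a library, 91 of 2700 member values lost a call and 90 gained one with their sign kept. A change of sign occurred in 60, of which 14 belonged to called members and 46 to members not called. Those 14 also lost their call. CYP51A1 between NEG sublines in low serum gained a call with its sign changed, on log2(TPM + 0.5) and log2(TPM + 1). The cause was not tested. On leaving out a library, 35 of 1920 values changed sign, none of a called member.

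On log2(TPM + 0.5) and log2(TPM + 1), signs changed in low serum for EBP (-0.02649, -0.02617), STARD4 (-0.04475, -0.04428) and ELOVL6 (-0.05154, -0.05073) in MDA-MB-231, for CYP51A1 (-0.009571, -0.009138), SREBF1 (-0.1056, -0.105) and, not called, PMVK (-0.211, -0.21) and INSIG2 (-0.1895, -0.1811) in MDA-MB-436, and for CYP51A1 (-0.3363, -0.3197), STARD4 (-0.09315, -0.09226) and ELOVL6 (-0.05529, -0.05454) between the NEG sublines. On the same 2 scales the members' median in low serum was -0.3663 and -0.365 in MDA-MB-231 (from -0.1772), -0.8335 and -0.8319 in MDA-MB-436 (from -0.595) and -0.7593 and -0.7572 between NEG sublines (from -0.3586), and in standard serum 0.3473 and 0.3408 between NEG sublines (from 0.5205). On each scale 2 members were called higher in MDA-MB-231 in low serum (from 7), 1 higher in MDA-MB-436 (from 3) with 13 DEGs (from 6), 1 lower in the interaction (from 2) and 2 higher between NEG sublines (from 8). In MDA-MB-436 in standard serum 11 were called lower (from 17) and 4 higher (from 2).

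With the DESeq2 test, DESeq2 size factors, filterByExpr or all annotated genes, 1 member was called higher in MDA-MB-436 in low serum. Its median was -0.6298 with DESeq2, -0.6297 with its size factors, -0.627 with filterByExpr and -0.5444 on library totals. The interaction median in low serum was 0.4912 with DESeq2 (1 called lower), 0.4913 with its size factors and 0.4877 over all annotated genes, where the MDA-MB-231 median was -0.1405. On library totals the median between NEG sublines was -0.4297 in low and 0.3075 in standard serum, with 7 called lower in the latter (from 4). With only the 2 groups compared, 8 were called higher in MDA-MB-231 in standard serum (from 5) and 7 lower between NEG sublines. With the GC trend removed, 4 were called higher in MDA-MB-231 in low serum, 4 higher in MDA-MB-436 in standard serum, and 6 lower in the interaction there (from 2).

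Leaving out each library in turn gave members called higher of 4 to 7 in MDA-MB-231 and 1 to 3 in MDA-MB-436 in low serum, against 3 to 8 and 1 to 3 in standard serum. Medians in low serum ran from -0.2109 to -0.1595 in MDA-MB-231, -0.6557 to -0.5735 in MDA-MB-436, 0.4213 to 0.4922 for the interaction and -0.3978 to -0.3532 between NEG sublines. Members called lower for the interaction ran from 1 to 3 (low serum) and from 1 to 4 (standard serum), and from 4 to 7 between NEG sublines in standard serum. The extremes of 8 higher in MDA-MB-231, 7 lower between NEG sublines and 4 lower in the interaction came without POS replicate 1 of MDA-MB-436 in standard serum.

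The replicate numbers were not taken as pairs. No same-number correlation passed 0.1 in low serum, but 5 of 6 did in standard serum. With the replicate block the members called were 23 in MDA-MB-231, 26 in MDA-MB-436, 22 in the interaction and 28 between NEG sublines in low serum; in standard serum they were 18, 20, 15 and 27, against 15, 19, 12 and 24 without it. With only the numbers of the MDA-MB-436 POS libraries crossed in low serum, the members called were 25, 26, 25 and 28.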
